A study of Homo sapiens with 8 samples.

Results

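A set of 10 genes whose products trim broken DNA ends or take apart the joints between recombining DNA molecules were followed in the breast cancer line HCC1937 and its BRCA1-complemented derivative, with and without the ribonucleotide reductase inhibitor COH29. The genes were RAD50, NBN, RBBP8, EXO1, BLM, RMI1, GEN1, MUS81, EME1 and SLX4. A gene was taken where the platform annotation paired a probe set with that gene alone, represented, if it had several, by the one of highest average signal. By this rule 9 of the 10 genes were measured, of 18417 genes in all, and each of the 9 had 1 such probe set. RBBP8 was not analysed here.

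The study held 8 Affymetrix arrays in 4 groups of 2: HCC1937 with COH29, HCC1937 control, HCC1937+BRCA1 with COH29 and HCC1937+BRCA1 control. HCC1937 is an established line labelled BRCA1 deficient, with a truncated BRCA1, and HCC1937+BRCA1 is that line with exogenous wild-type BRCA1. Treated cells had 10 µM COH29 for 24 h. The labels give neither how the exogenous gene was introduced nor whether the derivative is 1 clone. The treatment protocol is worded alike on all 8 arrays, controls included, so a control is an array whose title and treatment label name no drug, and a vehicle or culture time cannot be told apart from COH29. No label says if both arrays of a pair are separate cultures; the p-values therefore measure only the spread between these arrays, which may be technical.

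Double-strand breaks that are repaired by homologous recombination are first resected: the MRE11-RAD50-NBN complex with CtIP, the product of RBBP8, starts the cut, and EXO1 or BLM with DNA2 extends it. Recombination then leaves joined DNA molecules, among them Holliday junctions. BLM with TOP3A, RMI1 and RMI2 dissolves such joints without exchange, while the nucleases GEN1, MUS81-EME1 and SLX1-SLX4 cut them. BRCA1 itself promotes resection and later steps of this pathway.

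The values are log2 intensities, so a difference of 1 is a 2-fold change, and levels of different genes on an array cannot be set against each other. Across genes, r within a group was 0.996 to 0.997. BRCA1 read 10.40 and 10.46 in HCC1937 with COH29, against 10.45 and 10.64 in HCC1937 control, and 10.25 and 10.07 in HCC1937+BRCA1 with COH29, against 10.50 and 10.43 in HCC1937+BRCA1 control. Between the lines without COH29 it differed by 0.08 ± 0.10 (SE), which did not pass the test (limma adjusted p = 0.62), so BRCA1 signal does not check the line labels. COH29 minus control for BRCA1 was -0.12 ± 0.10 in HCC1937, which did not pass (limma adjusted p = 0.444). In HCC1937+BRCA1 it was -0.30 ± 0.10, which passed (adjusted p = 0.0441). That call ended without 5 of the 8 arrays in turn and under 5 other settings. Averaged over 7 epithelial markers, the signal per array ran from 11.20 to 11.27 in HCC1937 and from 10.93 to 10.99 in HCC1937+BRCA1. Single markers did not all follow that average: without COH29, KRT5 was 1.70 and KRT19 0.82 higher in HCC1937, and the other 5 did not pass the test. With COH29, CDH1 rose by 0.26 in HCC1937 and 0.35 in HCC1937+BRCA1, and KRT14 by 0.35 in HCC1937+BRCA1. Over 9 markers of blood, endothelial and fibroblast cells the average per array ran from 6.80 to 6.95 in HCC1937 and from 6.71 to 6.81 in HCC1937+BRCA1. Means over the 8 arrays ran from 4.10 for PTPRC, the pan-leukocyte marker, to 10.71 for CD68, listed here as a blood marker. Since levels of different genes cannot be set against each other, this range does not say which of the 9 markers were present. Of those 9 markers 0 rose and 1 fell with COH29 in each line by the test. Both COH29 arrays lay above both control arrays for 6 of the 9 in HCC1937, beside 33.8% of all genes, and for 7 in HCC1937+BRCA1, beside 35.4%, with median differences of 0.22 and 0.20 beside 0.04 over all genes in each line. The 1 was PECAM1, an endothelial adhesion gene, with 7.35 ± 0.07 in HCC1937 with COH29 against 9.30 ± 0.10 in HCC1937 control, and 6.63 ± 0.17 in HCC1937+BRCA1 with COH29 against 8.11 ± 0.04 in HCC1937+BRCA1 control (SD, n = 2 each), and its part in the results was not tested. Such array values do not separate a change in RNA per cell from a change in the mix of cells or cell cycle stages.

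With COH29, 3 of the 9 genes fell in HCC1937 (GEN1, RAD50 and NBN) and 0 rose, and 4 fell in HCC1937+BRCA1 (the same 3 and BLM) and 0 rose. The threshold was an adjusted p of 0.05 (Benjamini-Hochberg) in limma's moderated fit over all 18417 genes. The share of all genes that fell was 12.5% in HCC1937 and 20.1% in HCC1937+BRCA1, and the share that rose was 10.2% in HCC1937 and 13.6% in HCC1937+BRCA1. That balance turned with arrays shifted to one median, when HCC1937 had 2079 genes lower and 2262 higher, and HCC1937+BRCA1 3126 lower and 3725 higher, with 2 of the 9 genes lower in HCC1937 and 4 in HCC1937+BRCA1. Over the 9 genes the median log2 difference was -0.15 in HCC1937 and -0.30 in HCC1937+BRCA1, beside 0.04 over all genes in each line. The genes that fell belong to both ends of the pathway: RAD50 and NBN to the first cut, BLM to resection and dissolution, GEN1 to junction cutting. EXO1, RMI1, MUS81, EME1 and SLX4 passed the test in neither line.

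**Figure D1:**
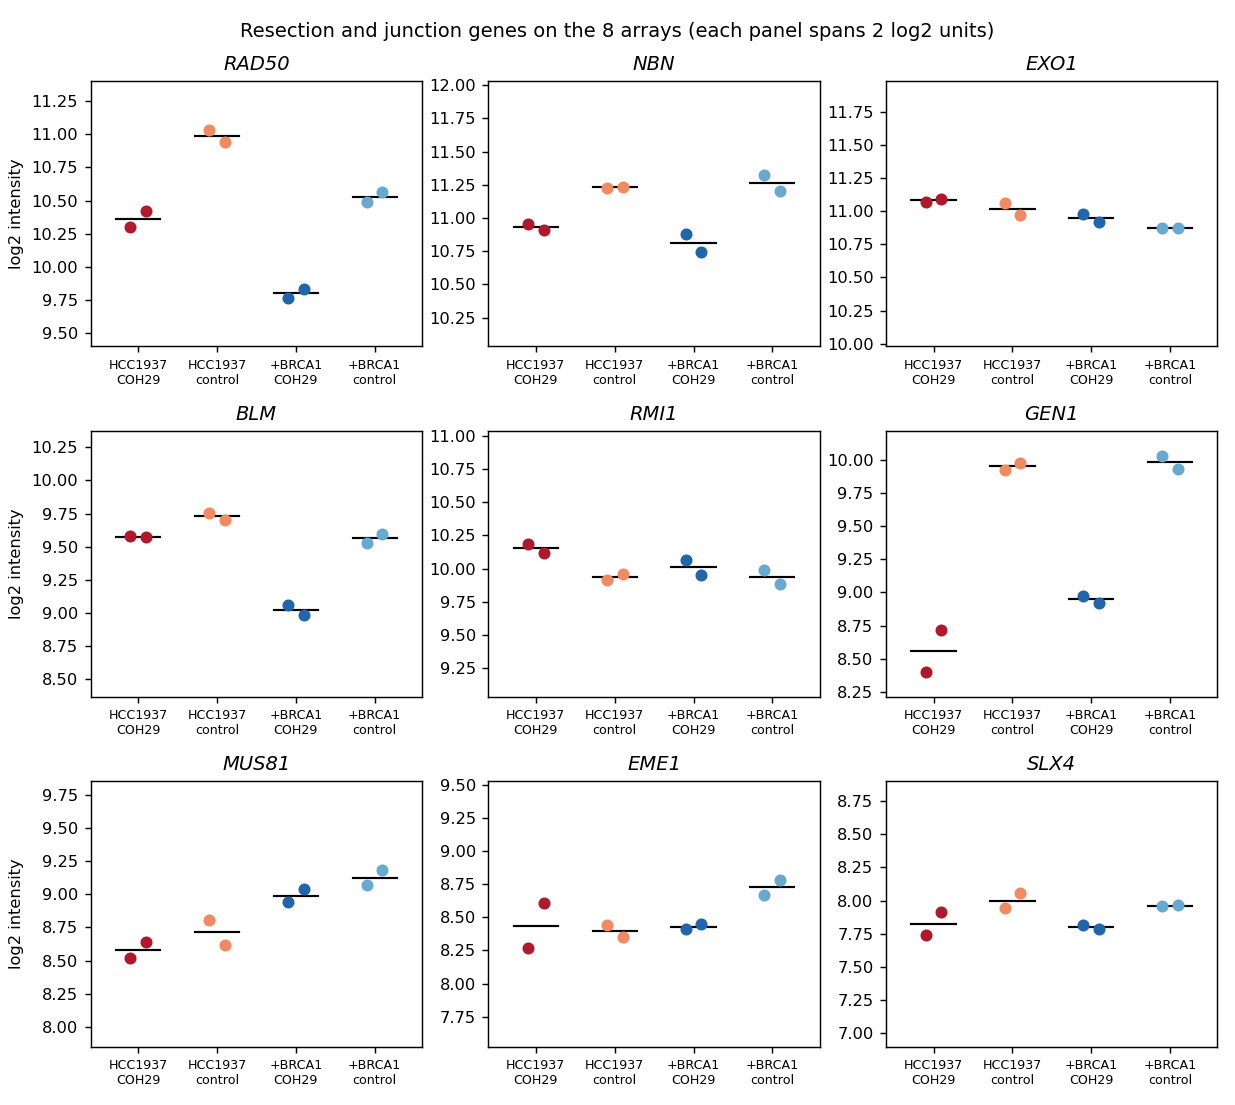
Log2 intensity of each of the 9 genes on the 8 arrays; points are single arrays, horizontal lines are means of 2 arrays, and every panel spans the same range of log2 units. GEN1 shows the widest gap between arrays with COH29 and control arrays, from 8.40 to 8.98 against 9.92 to 10.03 over the 2 lines.

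GEN1, a nuclease that cuts Holliday junctions symmetrically and works mainly in mitosis, had the largest difference of the 9 genes in each line. In HCC1937 its signal was 8.40 and 8.72 with COH29, against 9.92 and 9.98 in control. In HCC1937+BRCA1 it was 8.98 and 8.92 with COH29, against 10.03 and 9.93 in control. The arrays of the 4 groups fell into a low pair and a high pair in each line with no overlap, and the 2 COH29 arrays of HCC1937 lay farther apart than those of any other group. The log2 difference of GEN1 was -1.39 ± 0.11 in HCC1937 (limma adjusted p = 8.19e-05), to 38.1% of control, and -1.03 ± 0.11 in HCC1937+BRCA1 (adjusted p = 0.000156), to 48.8% of control. The call held in each line without any 1 array, with changes from -1.55 to -1.23 in HCC1937 and from -1.08 to -0.92 in HCC1937+BRCA1 over the 16 alternatives.

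RAD50, the ATPase that bridges DNA ends in the MRE11 complex, fell in each line. Its signal in HCC1937 was 10.30 and 10.42 with COH29, against 11.03 and 10.94 in control. In HCC1937+BRCA1 the arrays with COH29 read 9.77 and 9.84, against 10.49 and 10.57 in control. Every COH29 array lay below both control arrays of its own line. In HCC1937 the log2 difference was -0.63 ± 0.09 (limma adjusted p = 0.00115), to 64.7% of control. In HCC1937+BRCA1 RAD50 differed by -0.73 ± 0.09 (adjusted p = 0.000294), to 60.5% of control.

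NBN encodes nibrin, the subunit of the same complex that recruits the ATM kinase. NBN read 10.95 and 10.91 with COH29 in HCC1937, against 11.23 and 11.23 in control. In HCC1937+BRCA1 it read 10.88 and 10.74 with COH29, against 11.32 and 11.21 in control. The treated arrays were again below the controls in each line. The log2 difference was -0.30 ± 0.09 in HCC1937 (limma adjusted p = 0.0385) and -0.45 ± 0.09 in HCC1937+BRCA1 (adjusted p = 0.00372). The call in HCC1937 ended without COH29 replicate 1 or 2 of that line (adjusted p = 0.0952 and 0.113), without its control replicate 1 or 2 (0.143 and 0.153), with arrays shifted to one median (0.0655), without moderation (0.0583) and with only the 4 arrays compared (0.0518).

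EXO1, the exonuclease of long-range resection, did not pass the test in either line. It read 11.07 and 11.09 with COH29 in HCC1937, against 11.06 and 10.97 in control, and 10.98 and 10.92 with COH29 in HCC1937+BRCA1, against 10.87 and 10.87 in control. The log2 difference was 0.06 ± 0.08 in HCC1937 (limma adjusted p = 0.605) and 0.08 ± 0.08 in HCC1937+BRCA1 (adjusted p = 0.493). The 95% interval ran from -0.12 to 0.25 in HCC1937 and from -0.11 to 0.26 in HCC1937+BRCA1, so a fall as large as that of RAD50 lies outside both intervals.

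BLM, the RecQ helicase mutated in Bloom syndrome, fell in HCC1937+BRCA1. There it read 9.06 and 8.99 with COH29, against 9.53 and 9.60 in control, a log2 difference of -0.54 ± 0.08 (limma adjusted p = 0.000955) to 68.9% of control. In HCC1937 it read 9.58 and 9.57 with COH29, against 9.75 and 9.70 in control. The COH29 arrays of HCC1937 were also the lower ones, but the difference of -0.15 ± 0.08 did not pass the test (adjusted p = 0.215). RMI1, the scaffold of the dissolution complex, read 10.18 and 10.12 with COH29 in HCC1937, against 9.91 and 9.96 in control. In HCC1937+BRCA1 RMI1 read 10.07 and 9.95 with COH29, against 9.99 and 9.89 in control, with arrays that overlapped. Its log2 difference was 0.21 ± 0.09 in HCC1937 (adjusted p = 0.112) and 0.07 ± 0.09 in HCC1937+BRCA1 (adjusted p = 0.546). With a variance trend and robust moderation RMI1 passed in HCC1937 (adjusted p = 0.047).

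MUS81 is the catalytic subunit and EME1 the partner subunit of a nuclease that cuts branched DNA, and SLX4 is the scaffold that binds it and other nucleases. MUS81 read 8.52 and 8.64 with COH29 in HCC1937, against 8.81 and 8.62 in control, and 8.94 and 9.04 with COH29 in HCC1937+BRCA1, against 9.07 and 9.18 in control. SLX4 read 7.74 and 7.91 with COH29 in HCC1937, against 7.94 and 8.06 in control, and 7.81 and 7.79 with COH29 in HCC1937+BRCA1, against 7.96 and 7.96 in control. The MUS81 arrays of HCC1937 overlapped between COH29 and control, while those of HCC1937+BRCA1 and the SLX4 arrays of both lines were lower with COH29. Neither gene passed the test: the differences were for MUS81 -0.13 ± 0.10 in HCC1937 (limma adjusted p = 0.372) and in HCC1937+BRCA1 (0.323), and for SLX4 -0.17 ± 0.09 in HCC1937 (0.21) and -0.16 ± 0.09 in HCC1937+BRCA1 (0.196). With 1 array left out these uncalled values ran in HCC1937 from -0.23 to -0.04 for MUS81 and from -0.26 to -0.09 for SLX4, and in HCC1937+BRCA1 from -0.19 to -0.08 for MUS81. EME1 read 8.27 and 8.61 with COH29 in HCC1937, against 8.45 and 8.35 in control, so the treated arrays lay on either side of the controls. In HCC1937+BRCA1 EME1 read 8.41 and 8.45 with COH29, against 8.67 and 8.78 in control. Its difference was 0.04 ± 0.12 in HCC1937 (limma adjusted p = 0.845) and -0.30 ± 0.12 in HCC1937+BRCA1 (0.0813). In HCC1937+BRCA1 it passed without HCC1937 COH29 replicate 1 or 2 (adjusted p = 0.0316 for each), without genes of low level (0.0482) and with a variance trend and robust moderation (0.0495). Of the 4 genes of junction cutting GEN1 alone passed in either line in the fit over all arrays.

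**Figure D2:**
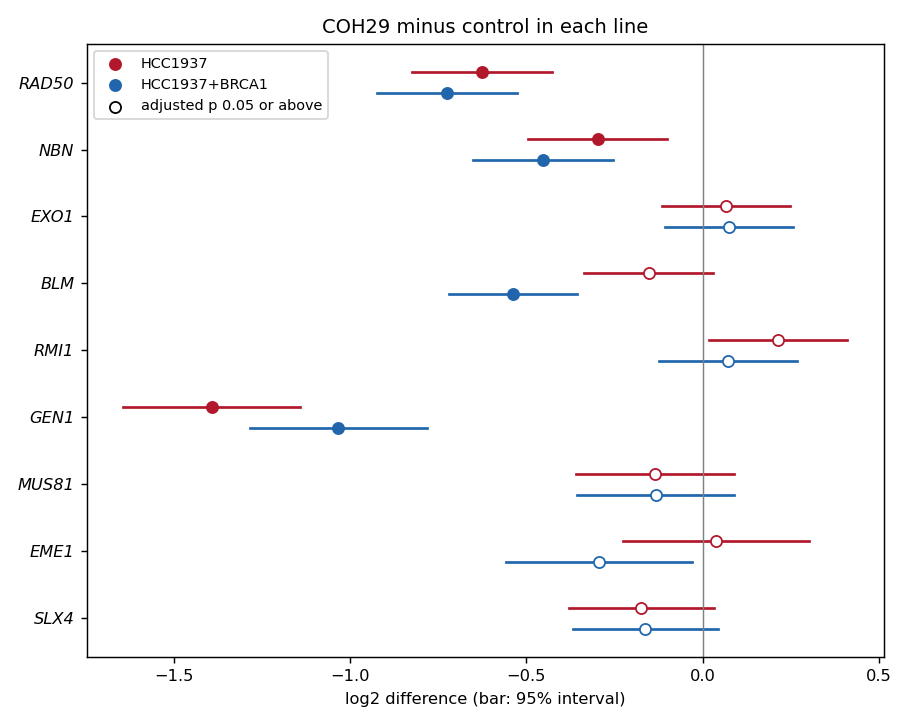
COH29 minus control on the log2 scale for the 9 genes in HCC1937 and HCC1937+BRCA1; points are fitted differences over 2 arrays a group, bars are 95% intervals, and open points did not pass the test. GEN1, at -1.39 and -1.03, lies farthest to the left, and RAD50 and NBN lie left of 0 in both lines.

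The stretches just before the starts of GEN1, RAD50 and BLM, which fell in at least 1 line, are shown with that of EXO1, which did not pass in either line, because the genes differed in response while their products share a pathway. Each is the 250 bases before the first start listed by RefSeq for the gene (GRCh38.p14, read 5′ to 3′ along the gene), and capitals mark matches to the motifs named below on either strand.
GEN1 (chr2:17753619-17753868, plus strand): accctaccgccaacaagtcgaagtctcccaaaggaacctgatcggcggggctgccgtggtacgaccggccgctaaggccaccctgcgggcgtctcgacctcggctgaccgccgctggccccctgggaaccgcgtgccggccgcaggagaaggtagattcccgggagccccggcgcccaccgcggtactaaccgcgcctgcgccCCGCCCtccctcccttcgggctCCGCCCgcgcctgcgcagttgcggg
RAD50 (chr5:132556727-132556976, plus strand): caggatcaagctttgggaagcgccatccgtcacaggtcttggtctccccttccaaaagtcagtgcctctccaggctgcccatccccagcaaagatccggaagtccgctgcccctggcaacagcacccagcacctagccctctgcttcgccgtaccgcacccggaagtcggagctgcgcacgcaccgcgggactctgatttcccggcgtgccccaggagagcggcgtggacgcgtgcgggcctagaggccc
BLM (chr15:90717096-90717345, plus strand): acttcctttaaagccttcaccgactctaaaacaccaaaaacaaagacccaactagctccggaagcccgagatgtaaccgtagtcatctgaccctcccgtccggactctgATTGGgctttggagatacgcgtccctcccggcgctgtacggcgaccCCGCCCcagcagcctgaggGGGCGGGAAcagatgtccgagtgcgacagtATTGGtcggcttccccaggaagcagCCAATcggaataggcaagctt
EXO1 (chr1:241847954-241848203, plus strand): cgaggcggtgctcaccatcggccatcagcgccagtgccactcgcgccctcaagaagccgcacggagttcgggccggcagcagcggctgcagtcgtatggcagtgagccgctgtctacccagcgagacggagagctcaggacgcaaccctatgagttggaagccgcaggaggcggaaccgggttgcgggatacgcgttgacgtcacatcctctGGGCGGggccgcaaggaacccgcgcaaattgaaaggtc

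The motifs searched on both strands were 2 forms of the E2F core, TTCCCGC and TTGGCGC, 2 forms of the cell cycle homology region, TTTGAA and TTCGAA, the CCAAT box, CCAAT, and the GC box, GGGCGG. Over all 35116 RefSeq windows of this length these letters stood in 5.52%, 2.56%, 13.3%, 1.19%, 32% and 42.6%, in that order. BLM held the first E2F form, overlapping a GC box, with a further GC box and 3 CCAAT boxes. GEN1 held 2 GC boxes on the opposite strand, EXO1 held 1 GC box, and RAD50 held 0 of the 6 motifs. Of the other members with a window in the table, EME1 held TTGGCGC on the opposite strand, RMI1 held 2 CCAAT boxes, MUS81 held a CCAAT box and a GC box, and SLX4 a GC box. As RAD50 held 0 of the 6, no motif could be common to GEN1, RAD50 and BLM. The GC box stood in GEN1 and BLM, but also in EXO1, MUS81 and SLX4, which passed in neither line, and in 42.6% of all windows. A match or its lack in this window is a description of letters.

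Whether the lines differed in the response was tested as the COH29 effect in HCC1937 minus that in HCC1937+BRCA1. By this test 0 of the 9 genes passed in either direction in the limma fit, beside 0.413% of all genes above and 0.543% below. An unadjusted p under 0.05 was found for 2 of the 9, BLM and GEN1, beside 13.2% of all genes. BLM had a difference of effects of 0.38 ± 0.11 (95% interval 0.13 to 0.64, limma adjusted p = 0.185), its value being nearer 0 in HCC1937. GEN1 had -0.36 ± 0.16 (interval -0.71 to -0.00, limma adjusted p = 0.375), its value being farther from 0 in HCC1937. Without HCC1937 COH29 replicate 1 it was -0.20, and without HCC1937 COH29 replicate 2 it was -0.52. EME1 had 0.33 ± 0.16 (interval -0.04 to 0.71, adjusted p = 0.44), with 0.50 and 0.16 when the same arrays were left out in turn. The intervals of the other 6 genes included 0, and for RAD50 the interval ran from -0.18 to 0.38.

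Between the lines without COH29, 1 of the 9 genes was higher in HCC1937 (RAD50) and 1 lower (MUS81), beside 14.8% of all genes higher and 16.4% lower. RAD50 read 11.03 and 10.94 in HCC1937 control, against 10.49 and 10.57 in HCC1937+BRCA1 control, a difference of 0.46 ± 0.09 (limma adjusted p = 0.00359). MUS81 read 8.81 and 8.62 in HCC1937 control, against 9.07 and 9.18 in HCC1937+BRCA1 control, a difference of -0.41 ± 0.10 (adjusted p = 0.0118). Leaving out HCC1937 control replicate 2 (adjusted p = 0.103) or HCC1937+BRCA1 control replicate 2 (0.0763) ended its call. EME1, its partner, read 8.45 and 8.35 in HCC1937 control, against 8.67 and 8.78 in HCC1937+BRCA1 control, and its difference of -0.33 ± 0.12 missed the threshold (adjusted p = 0.0617). It passed without either HCC1937 COH29 array (adjusted p = 0.0217 for each), without genes of low level (0.0348), with a variance trend and robust moderation (0.0309) and with only the 4 arrays compared (0.0311), and the count of lower genes was then 2. GEN1, NBN, RMI1 and SLX4 had control arrays that overlapped between the lines, with differences from -0.03 to 0.04. From high to low, the group means of RAD50 stood in the order HCC1937 control, HCC1937+BRCA1 control, HCC1937 with COH29 and HCC1937+BRCA1 with COH29, the middle pair not being tested against each other.

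With COH29 in both lines, 2 of the 9 genes were higher in HCC1937 (RAD50 and BLM) and 2 lower (MUS81 and GEN1), beside 17.4% of all genes higher and 14.2% lower. This comparison uses the same COH29 arrays as the drug effects above. BLM differed by 0.55 ± 0.08 (limma adjusted p = 0.000791), so HCC1937 held 146% of the level of HCC1937+BRCA1, while without the drug its difference of 0.17 ± 0.08 missed the threshold (adjusted p = 0.167). RAD50 differed by 0.56 ± 0.09 (adjusted p = 0.00121) and MUS81 by -0.41 ± 0.10 (adjusted p = 0.0116). The MUS81 call ended without HCC1937 COH29 replicate 1 (0.0653) or HCC1937+BRCA1 COH29 replicate 2 (0.0701). GEN1 differed by -0.39 ± 0.11 (adjusted p = 0.0247), a call that ended without HCC1937 COH29 replicate 1 (0.137), without HCC1937+BRCA1 COH29 replicate 1 or 2 (0.11 and 0.0689), without moderation (0.0968) and with only the 4 arrays compared (0.0539). Without HCC1937 COH29 replicate 1 its difference was -0.23. That array, at 8.40, is the lowest GEN1 reading of the 8.

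**Figure D3:**
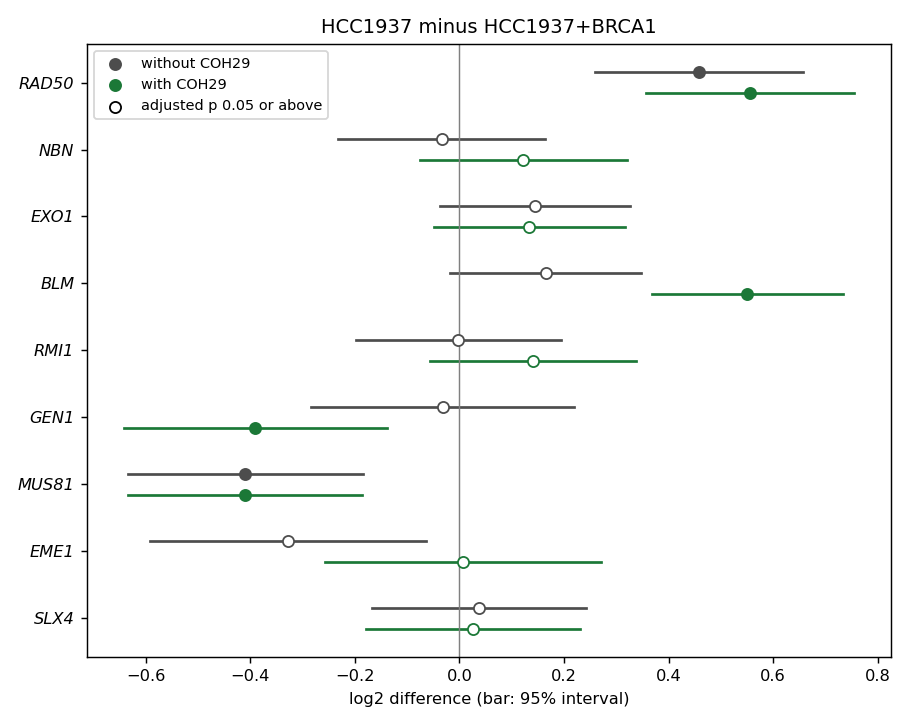
HCC1937 minus HCC1937+BRCA1 on the log2 scale for the 9 genes, without and with COH29; points are fitted differences over 2 arrays a group, bars are 95% intervals, and open points did not pass the test. RAD50 lies right of 0 and MUS81 left of 0 in both comparisons, at 0.46 and 0.56 for RAD50 and -0.41 for MUS81 in each.

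The likeness of 2 genes was measured as the root mean square difference of their log2 values over the 8 arrays, after each gene's own mean was subtracted. Among the 9 genes RMI1 and EXO1 were the closest, at 0.08, and both varied little themselves (0.10 and 0.08 around their means). GEN1 was the farthest of the members for EXO1, BLM, RMI1, NBN, MUS81, EME1 and SLX4, and its nearest member was NBN at 0.47. RAD50 was nearest to BLM, at 0.20, and MUS81 to EME1, at 0.16. Over all genes the closest to GEN1 were CCNF, CDCA3 and SCRN3 (0.09, 0.10 and 0.10), the closest to RAD50 were STK38, JADE2 and SHTN1 (0.04, 0.06 and 0.06), and the closest to BLM were REXO4, SAAL1 and EIF2S1 (0.03, 0.04 and 0.05). For NBN they were AQR, APIP and CASP4, with 0.02 to 0.03, for MUS81 APRT, EMD and DMKN, with 0.04 to 0.05, and for EME1 GMPPB, ZNF774 and WDPCP, with 0.05 to 0.06. EXO1, RMI1 and SLX4 had little variation to match, and their closest genes were RBPJ, PRND and ERBB2 at 0.03, 0.03 and 0.04.

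Other genes of the pathway were followed in 4 lists drawn up from their known roles, with earlier results of these data already known. Among the partners of resection, in HCC1937 3 of 12 measured partners were lower and 1 was higher, with a median of -0.10, and in HCC1937+BRCA1 6 were lower and 0 higher, with a median of -0.30. Of all genes, 12.5% were lower and 10.2% higher in HCC1937, and 20.1% lower and 13.6% higher in HCC1937+BRCA1. ATM, the kinase recruited by nibrin, had log2 differences of -0.44 in HCC1937 and -0.68 in HCC1937+BRCA1 (limma adjusted p = 0.0104 and 0.000654). EXD2, a nuclease, had -0.46 in HCC1937 and -0.43 in HCC1937+BRCA1, and WRN, the Werner helicase, -0.38 and -0.32. RPA3, a subunit of the single-strand binding protein, rose by 0.33 in HCC1937. In HCC1937+BRCA1 CDK1, the kinase that licenses resection, was at -0.72 and BARD1, the partner of BRCA1, at -0.29. In HCC1937+BRCA1 the WRN call ended without 7 of the 8 arrays in turn (all but its control replicate 2), and the BARD1 call without 5 (every control array and its own COH29 replicate 2). The 3 lower became 0 if HCC1937 COH29 replicate 1 or HCC1937 control replicate 2 was left out, and 1 if HCC1937 control replicate 1 was or with no moderation. The 1 higher became 0 without any 1 of the 4 HCC1937 arrays or with no moderation. The 6 became 3 when COH29 replicate 2, control replicate 1 or control replicate 2 of HCC1937+BRCA1 was left out, 3 with arrays shifted to one median, 2 after cyclic loess and 1 without moderation, and the 0 higher became 1 under both scalings. The WRN, BARD1 and BRCA1 calls in HCC1937+BRCA1 also ended with the replicate block and with only the arrays compared. MRE11, the nuclease that RAD50 and NBN bind, was at -0.03 ± 0.09 in HCC1937 (limma adjusted p = 0.862) and -0.10 ± 0.09 in HCC1937+BRCA1 (0.401).

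Factors that restrain resection had 2 of 10 measured members lower in HCC1937 and 3 in HCC1937+BRCA1, and 0 higher. The shares of all genes were 12.5% lower and 10.2% higher in HCC1937, and 20.1% lower and 13.6% higher in HCC1937+BRCA1. TP53BP1, which shields ends from resection, was at -0.81 ± 0.09 in HCC1937 and -1.01 ± 0.09 in HCC1937+BRCA1 (limma adjusted p = 0.000277 and 4.73e-05), and held in each line without any 1 array. SHLD1, a shieldin subunit, was at -0.33 in HCC1937 and -0.46 in HCC1937+BRCA1, and STN1, a subunit of the complex that fills resected ends, was at -0.47 in HCC1937+BRCA1. The 2 became 1 when HCC1937 COH29 replicate 1 or any HCC1937 control array was left out, without moderation and with only the 4 arrays compared. The 0 higher became 1 in HCC1937 under 6 of the alternatives, and in HCC1937+BRCA1 without genes of low level and without HCC1937+BRCA1 COH29 replicate 2. The STN1 call ended, and the 3 became 2, when replicate 1 of either HCC1937+BRCA1 group was left out. In HCC1937+BRCA1 the 0 higher also became 1 with the replicate block, and the STN1 call also ended without moderation. The medians were -0.04 in HCC1937 and -0.14 in HCC1937+BRCA1.

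Partners in junction processing had 0 of 12 measured members lower and 1 higher in HCC1937, and 5 lower and 1 higher in HCC1937+BRCA1, with medians of 0.00 and -0.07. Beside these counts, 12.5% of all genes were lower and 10.2% higher in HCC1937, and 20.1% lower and 13.6% higher in HCC1937+BRCA1. RECQL, a RecQ helicase, rose by 0.41 in HCC1937 and 0.45 in HCC1937+BRCA1 (limma adjusted p = 0.0131 and 0.00559). Leaving out HCC1937 COH29 replicate 2 or any HCC1937 control array ended its call in that line, so that the 1 became 0, and it became 2 with a variance trend and robust moderation. In HCC1937+BRCA1 ERCC4, which encodes the XPF nuclease bound by SLX4, was at -0.82, FAN1, a nuclease of crosslink repair, at -0.59, ERCC1, the partner of XPF, at -0.33, and SLX4IP, an SLX4 interactor, at -0.33. The 5 became 2 without HCC1937+BRCA1 COH29 replicate 2 and 3 without any 1 of the 2 controls of HCC1937+BRCA1. The 1 higher became 2 with arrays shifted to one median, after cyclic loess and without HCC1937+BRCA1 control replicate 2. ERCC4 was at -0.11 in HCC1937 (limma adjusted p = 0.462), and its difference of effects, 0.70, did not pass the test (0.0591). TOP3A and RMI2, the partners of BLM and RMI1, passed in neither line.

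Strand exchange genes, which act between resection and junction formation, had 4 of 15 measured members lower and 2 higher in HCC1937, and 5 lower and 1 higher in HCC1937+BRCA1. Over all genes the shares were 12.5% lower and 10.2% higher in HCC1937, and 20.1% lower and 13.6% higher in HCC1937+BRCA1. MMS22L, a factor in the repair of stalled replication forks, was at -1.23 ± 0.09 in HCC1937 and -1.54 ± 0.09 in HCC1937+BRCA1 (limma adjusted p = 5.93e-05 and 8.47e-06), and held without any 1 array. SFR1 was at -0.55 in HCC1937 and -0.93 in HCC1937+BRCA1, RAD51B at -0.36 and -0.57, and RAD51C at -0.28 and -0.70, all called. The RAD51C call in HCC1937 ended with only the 4 arrays compared and without any 1 array other than the HCC1937+BRCA1 COH29 arrays. RAD51AP1 was at -0.34 in HCC1937+BRCA1. RAD54L, a translocase, and FIGNL1 rose by 0.34 and 0.32 in HCC1937. The 4 became 2 if HCC1937 COH29 replicate 1 or any HCC1937 control array was left out and with only the 4 arrays compared. The 2 higher became 0 if HCC1937 COH29 replicate 2 or HCC1937 control replicate 1 was left out, and 1 if HCC1937 control replicate 2 or any 1 HCC1937+BRCA1 array was. They became 1 without moderation or with only the 4 arrays compared, and 4 with a variance trend and robust moderation. The 1 higher in HCC1937+BRCA1, FIGNL1, became 0 without any 1 array of that line and without moderation, while 2 rose with a variance trend and robust moderation and 3 with arrays shifted to one median or after cyclic loess. The list medians were 0.01 in HCC1937 and -0.03 in HCC1937+BRCA1. Over the 4 lists, 2 of 13 calls in HCC1937 and 11 of 21 in HCC1937+BRCA1 held without any 1 array.

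Many of these genes peak in S or G2 phase, and cell cycle genes moved with COH29 too. Of 6 genes of S/G2 and mitosis, 5 fell in HCC1937 and 6 in HCC1937+BRCA1, with medians of -0.80 and -1.07. Of all genes, 12.5% fell in HCC1937 and 20.1% in HCC1937+BRCA1, with a median of 0.04 in each line. The mitotic kinase gene PLK1 averaged 10.64 ± 0.09 in HCC1937 with COH29, against 12.39 ± 0.03 in HCC1937 control, and 9.72 ± 0.23 in HCC1937+BRCA1 with COH29, against 11.65 ± 0.09 in HCC1937+BRCA1 control (SD, n = 2 each). Of 5 genes of G1/S and S phase, 3 rose in HCC1937 and 2 in HCC1937+BRCA1, and 0 fell. The share of all genes that rose was 10.2% in HCC1937 and 13.6% in HCC1937+BRCA1. RRM2 rose by 0.31 in HCC1937 alone. Its call ended without moderation, with the replicate block and with only the arrays compared. It also ended when any HCC1937 array or any HCC1937+BRCA1 control array was left out. CDC6, which loads the replicative helicase, rose by 0.74 in HCC1937 and 0.69 in HCC1937+BRCA1, and CCNE2, cyclin E2, by 0.57 and 0.54. CDK1 stands in both the S/G2 list and the list of resection partners. The part of cell cycle stage in the falls of GEN1, RAD50, NBN and BLM was not tested.

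**Figure D4:**
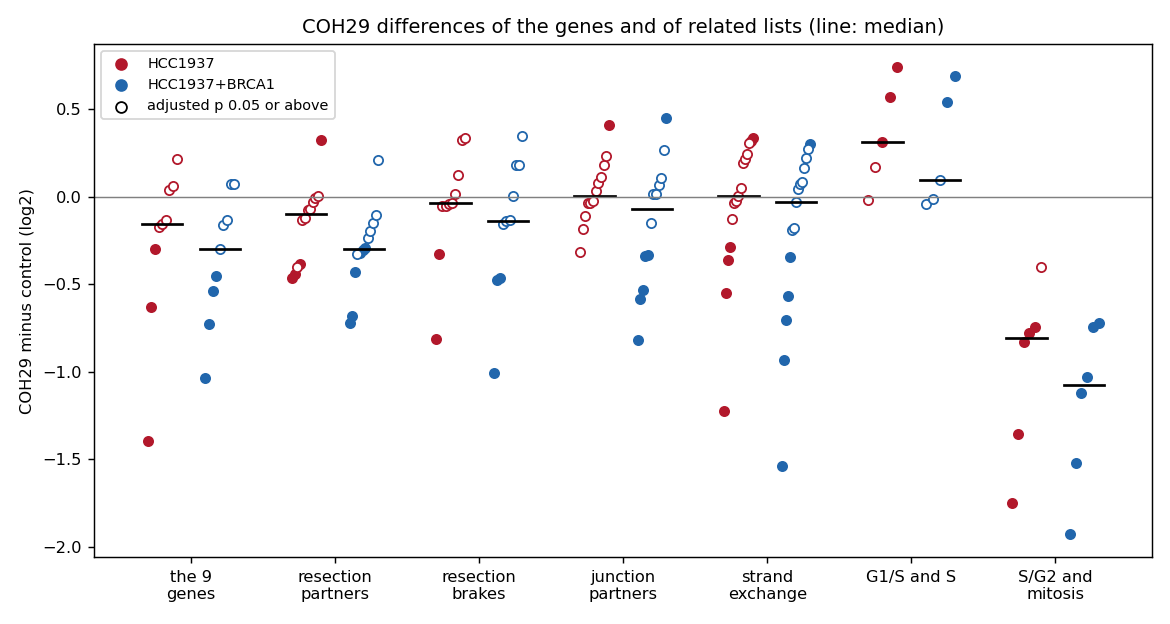
COH29 minus control on the log2 scale for each gene of the 9 and of the related lists, HCC1937 at the left and HCC1937+BRCA1 at the right of each list; each point is 1 gene, black lines are list medians, and open points did not pass the test. The list of S/G2 and mitosis genes lies lowest, with medians of -0.80 and -1.07, and the 9 genes have medians of -0.15 and -0.30.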

How the data were processed

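The authors deposited 1 table of log2 intensity for 33297 probe sets and 8 arrays, used without further scaling. Per the submitters' processing notes, RMA and Partek were used, without a version. No source used here names a genome build for the array table. Of its probe sets 19460 had 1 gene in the platform annotation, 1754 several and 12083 none, and those with 1 gene gave 18417 genes, the probe set with the highest mean standing for each gene. There were no detection calls. Precision is limited by 2 arrays a group.

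A group-means model over the 8 arrays was fitted with limma 3.58.1 in R 4.3.3 (4 residual degrees of freedom, eBayes), since 2 arrays a group leave few degrees of freedom. Adjusted p-values are Benjamini-Hochberg over all genes, intervals are 95%, and ± after a difference is the moderated SE. On simulated data for COH29 in HCC1937 (18417 genes), 76.1% of 67 genes changed by 0.5 were recovered and 100% of those changed by 1 or 2, with 12 unchanged genes called. Few genes were changed there, the groups otherwise shared each gene's mean, and the noise was normal. In the data 12.5% of genes fell and 10.2% rose in that comparison, so these recovery shares need not hold for them. Members and lists were chosen with earlier results of these data known. All members were named, and of each list at most the 5 called genes with the smallest p. The replicate numbers were not taken to pair arrays, since deviations of same-numbered arrays correlated from -0.204 to 0.26. The alternatives were a filter at the 30th percentile of level, 2 scalings, 2 variance settings, a replicate block, the mean of probe sets, only the arrays compared, and each array left out. Promoter windows and their coordinates are RefSeq's (GRCh38.p14). Python 3.11.15, pandas 2.3.3 and matplotlib 3.10.9 made tables and figures.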

Additional observations from a re-analysis of the deposited data

How the results depend on the processing

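Of 711 values of single genes under 16 alternatives (15 for the difference of effects), 661 kept their direction and side of the threshold, 16 lost a call, 10 gained one and 24 changed sign, all of the last being uncalled values. The falls of GEN1 and RAD50 in both lines, of NBN and BLM in HCC1937+BRCA1, and the RAD50 and BLM differences between lines with COH29 were called under all of them, as was RAD50 without COH29. The count of rising genes in HCC1937 became 1 with a variance trend and robust moderation. The count of lower genes in HCC1937 without COH29 became 2 without genes of low level, with that moderation and with only the arrays compared, and ran from 0 to 2 with 1 array left out. With COH29 the 2 lower became 1 without moderation and with only the arrays compared, and ran from 0 to 2 with 1 array left out. With 1 array left out, values that changed sign ran, for EME1, from -0.1307 to 0.2088 for COH29 in HCC1937 and from -0.1632 to 0.1762 between lines with COH29. For the difference of effects they ran from -0.0540 to 0.0330 for EXO1, -0.0958 to 0.0948 for MUS81 and -0.0959 to 0.0733 for SLX4. Between lines without COH29 they ran from -0.0907 to 0.0231 for NBN, -0.0547 to 0.0504 for RMI1, -0.0816 to 0.0173 for GEN1 and -0.0190 to 0.0950 for SLX4, and with COH29 from -0.0579 to 0.1112 for SLX4. With arrays shifted to one median, RMI1 without COH29 was 0.0017, EME1 with COH29 -0.0245 and SLX4 with COH29 -0.0044. After cyclic loess RMI1 was 0.0220 and EME1 -0.0246. With the replicate block, which rests on a shared number only, 3 and 4 members fell with COH29 as before, and 1672 genes rose and 2107 fell in HCC1937 in place of 1872 and 2307, while 45 and 61 in place of 76 and 100 passed for the difference of effects. The block also ended the calls of RAD51C, FIGNL1 and RRM2 in HCC1937 and of WRN, BARD1, BRCA1 and FIGNL1 in HCC1937+BRCA1, and gave 1 rising restraining factor in each line. For the difference of effects, 327 and 239 genes (higher and lower) passed with a variance trend and robust moderation, 188 and 163 without genes of low level, 1 and 2 without moderation, and 14 to 37 and 26 to 39 with 1 array left out. The cause of these shifts was not tested, and 2 arrays a group limit each call.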

Other observations

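The protein-coding genes next to the 9 members in RefSeq's order were looked at after the members' values were seen. Of 18 neighbours 17 were measured. With COH29, 2 were higher and 2 lower in HCC1937, and 1 was higher and 5 lower in HCC1937+BRCA1 in the limma fit over all genes. In that fit 10.2% of the 18417 genes rose in HCC1937, while 12.5% fell. For HCC1937+BRCA1 the matching shares were 13.6% rising and 20.1% falling. Whether neighbours differed from other genes in these shares was not tested. SMC6, which lies beside GEN1, was at 0.12 in HCC1937 (adjusted p = 0.42) and -0.11 in HCC1937+BRCA1 (adjusted p = 0.399), while GEN1 was at -1.39 and -1.03. LRRC59, which lies beside EME1, was at -0.58 in HCC1937 (adjusted p = 0.00197) and -0.62 in HCC1937+BRCA1 (adjusted p = 0.000791).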
